A study of Mus musculus with 2 samples.

Results

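The pup esophagus held 85 cells with a squamous class label, of 7808 cells in the series and 340 cells tagged as pup esophagus. The members were taken from the deposited cell labels, as cells with the pup esophagus tag and the label Squamous Epithelial (56 cells, called the first label) or Squamous Epithelial-2 (29 cells, called the second label). The labels were made by clustering the same counts that are compared here, so differences between the labels are a description and no test was run on them. Mice were C57BL/6 wild type, and esophagus, gastro-esophageal squamocolumnar junction (GE-SCJ) and stomach were taken from embryos at E15 and E19, from pups on day 2 and from adults at 8 weeks. The study's design gives 6 mice at E15, 2 at E19, 2 pups and 3 adults, whereas the methods speak of cells from 3 mice being combined, and these sources were not reconciled here. Replicates were pooled and marked with 1 oligonucleotide tag for each region and stage before joint sequencing. The mouse of origin is not marked on a cell, so the pup esophagus is 1 pooled sample, a label could come mainly from 1 pup, and there are no replicates. Levels are UMIs (unique molecular identifiers) summed over the cells of a label, scaled to counts per 1000000 UMIs of that label (CPM). Intervals in parentheses are exact 95% intervals and cover counting error only.

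The esophagus is lined by a stratified squamous epithelium. Its basal cells rest on the basement membrane through hemidesmosomes, divide, and carry the transcription factor p63 and the keratins K5 and K14. Cells that leave the basal layer stop dividing, switch to suprabasal keratins such as K13 and K4, and then build a cornified envelope and a surface barrier before they are shed. In the fetus and around birth the surface of such an epithelium can also carry a temporary layer of flat cells, the periderm, with keratins that are otherwise found in simple epithelia.

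The first label held 570908 UMIs and the second label 401731 UMIs. A first-label cell had between 1265 and 59766 UMIs (median 8503.5), and a second-label cell between 2731 and 37982 (median 11550), so depth overlapped widely. Fewer genes were found per cell of the second label at equal depth. After each cell was thinned to 5000 UMIs, the median was 1774 genes in 47 first-label cells and 1238.5 genes in 28 second-label cells. The median mitochondrial share was 1.89% in the first label and 1.75% in the second. By the deposited cell cycle phases, 4 first-label cells were in S and 7 in G2M, whereas all 29 second-label cells were called G1. Of the squamous-labelled cells of the pup esophagus, 34.1% (24.2 to 45.2) had the second label. Elsewhere few cells had the second label, with 3 of 123 squamous cells in E19 esophagus, 4 of 34 in E19 GE-SCJ, 1 of 4 in E19 stomach, 2 of 46 in pup GE-SCJ and 1 of 87 in adult GE-SCJ. The shares in E19 GE-SCJ, 11.8% (3.30 to 27.5), and in E19 stomach, 25% (0.631 to 80.6), had intervals that overlapped that of the pup esophagus. The second label was given to 0 of 232 squamous cells of the adult esophagus, 0 of 64 of the E15 esophagus and 0 of 47 of the E15 GE-SCJ. How many cells carry a label also depends on how cells were dissociated, filtered and clustered.

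Of the first-label cells, 2 stood apart from the rest. The first of them was placed by a finer deposited clustering (cluster 18) with the second-label cells, had 1265 UMIs and 13.6% mitochondrial UMIs, and held 40 of the 43 Ltf UMIs of the first label. The other had the most UMIs (59766) and genes (7564) of its label and held 169 of the 229 Psca UMIs, 256 of the 499 Gsto1 UMIs, 349 of the 831 Krt13 UMIs and all 8 Msln UMIs. Together they held 38 of the 59 first-label UMIs (64.4%) of the 15 genes with the highest ratio named below. Values without them are given for named genes where they move the first-label level by more than 1.5 times.

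The 4 marker genes differed in level between the labels, while the ranges over cells overlapped for each of them. Krt7 encodes a keratin of simple epithelia, Krt13 the main suprabasal keratin of esophageal cells, Trp63 the basal factor p63, and Msln a surface glycoprotein best known from mesothelium and some fetal epithelia. Krt7 (chr15:101411043-101430313, plus strand, GRCm38) was detected in 25 of 56 first-label cells, from 0 to 3953 CPM with a median of 0, and in all 29 second-label cells, from 1099 to 11353 CPM with a median of 5541. Only the cell of finer cluster 18 brought the first-label range into that of the second label, as the next first-label cell had 399 CPM. Summed Krt7 was 96.3 CPM (72.6 to 125) in the first label and 5491 CPM (5264 to 5725) in the second, a log2 ratio of 5.81. Krt13 (chr11:100117327-100121566, minus strand) ran from 0 to 5839 CPM over first-label cells (median 436) and from 2558 to 10437 CPM over second-label cells (median 6519). The ranges overlapped, with 5 first-label cells at or above the lowest second-label cell. Summed Krt13 was 1456 CPM in the first label and 6915 CPM in the second, a log2 ratio of 2.25, or 2.88 without the 2 cells that stood apart.

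Trp63 (chr16:25683763-25892102, plus strand) showed the opposite order. It was detected in 48 of 56 first-label cells, with a median of 303 CPM and a highest value of 1010, and 190 UMIs in all. None of the 29 second-label cells had a Trp63 UMI, which by the bound of 3 cells allows a share of cells with a UMI of up to 10.3% and sets no limit on cells that express the gene. The summed level was at least 44.6-fold lower in the second label. Msln (chr17:25748613-25754378, minus strand) was found in 1 of 56 first-label cells, at 134 CPM, and in 28 of 29 second-label cells, with a median of 1004 CPM and a highest value of 2861. Summed Msln was 14 CPM (6.05 to 27.6) and 1001 CPM (905 to 1103), a log2 ratio of 5.99. Without the 2 cells it had no UMI in the first label. The plot of levels per cell shows these 4 genes beside Krt5, Psca, Gsto1 and Ltf.

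**Figure D1:**
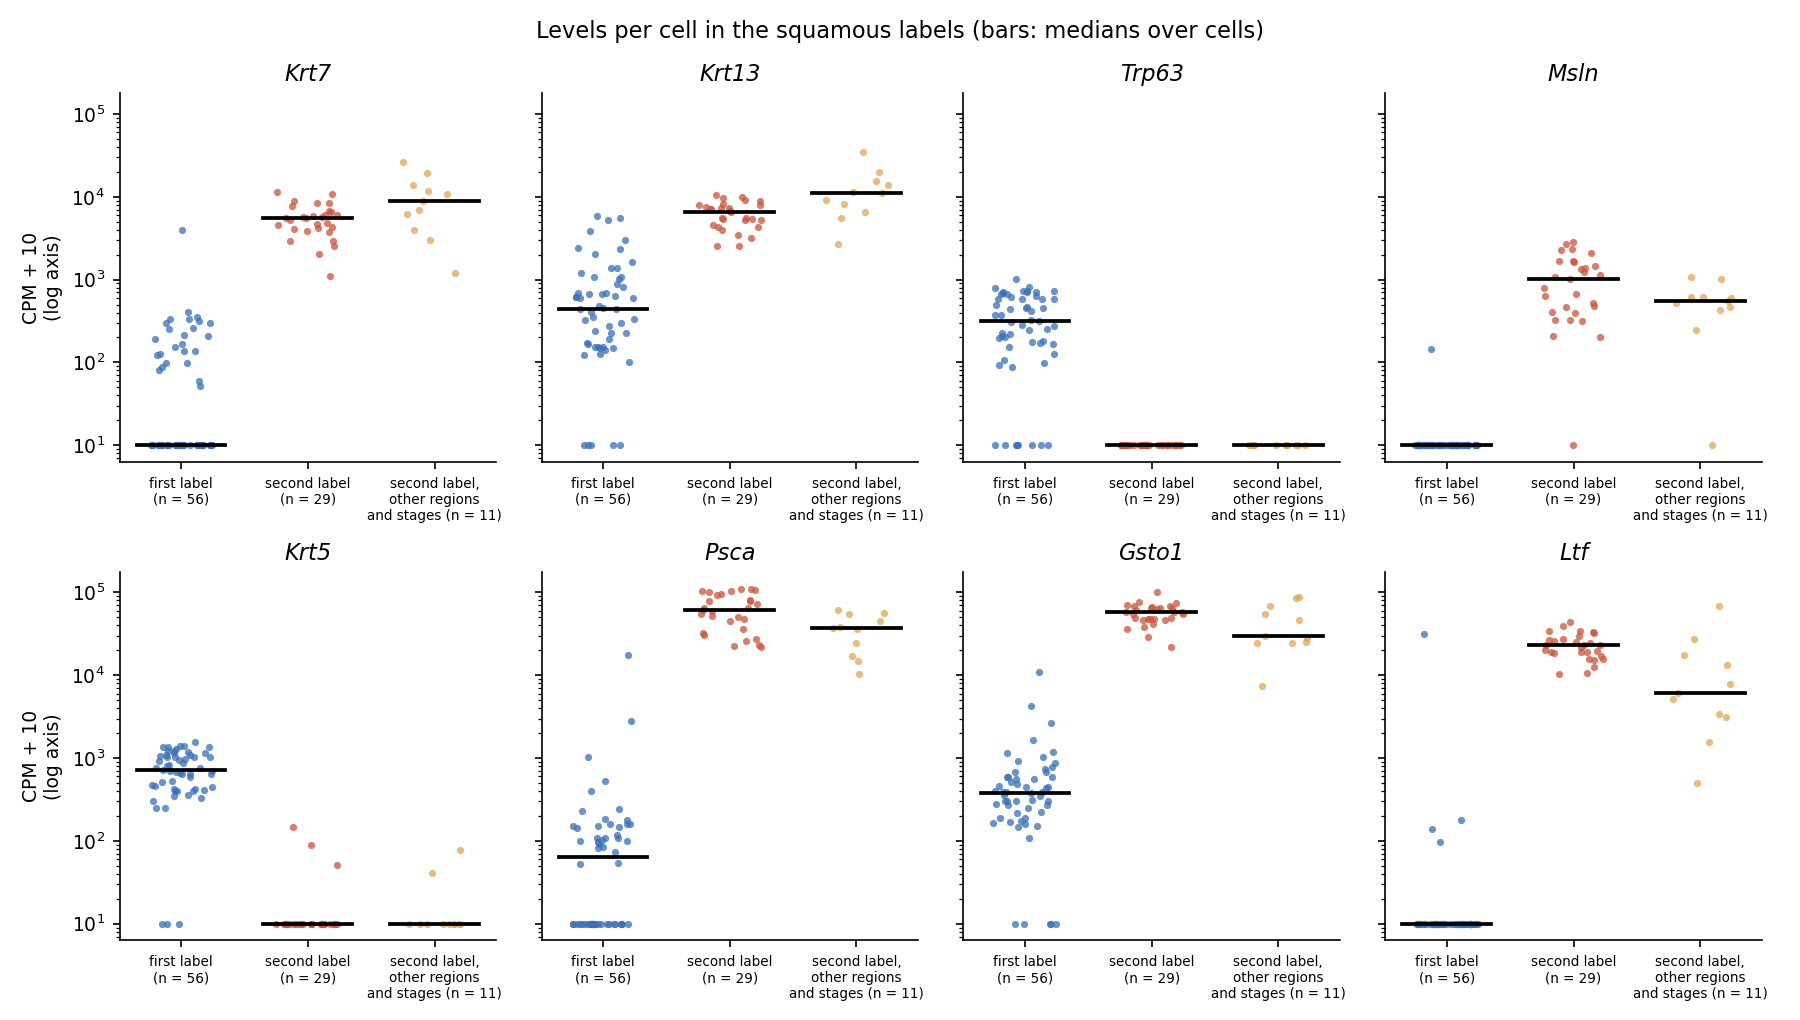
Each point is a cell, placed by its CPM of the gene plus 10 (log axis), for the first label (56 cells) and second label (29 cells) of the pup esophagus and for 11 second-label cells of other regions and stages. Bars are medians over cells, and Trp63 lies at 0 in all second-label cells. Psca and Gsto1 lie above every first-label cell in the 29 second-label cells of the pup esophagus, but not in all of the 11 others.

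Free RNA in the suspension adds UMIs to cells that do not make them, and immune-labelled cells of the pup tissues, which should lack keratins, give its size. After thinning to 5000 UMIs, Krt7 was found in 23.4% of first-label cells and 5.17% of 58 immune cells. Krt13 was found in 83.0% of first-label and 37.9% of immune cells, and Psca in 31.9% and 31.0%. The share of first-label cells with a Psca UMI was therefore at the level of this background. Without thinning, Krt7, Krt13 and Psca were found in 44.6%, 91.1% and 53.6% of the first-label cells (median depth 8503.5 UMIs) and in 5.81%, 40.7% and 38.4% of 86 immune cells (median depth 5935 UMIs). In the first label 21 cells had UMIs of both Krt7 and Trp63, and 44 cells of both Krt13 and Trp63.

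Of the 2269 genes that reached 50 UMIs in the labels together, 481 (21.2%) were at least 2-fold higher in the second label and 1084 (47.8%) at least 2-fold lower. The median log2 ratio of these genes was -0.86. Relative to that median, 710 genes (31.3%) were at least 2-fold higher and 736 (32.4%) at least 2-fold lower. With a library size that counts no mitochondrial, hemoglobin or ribosomal protein UMIs, the median was -1.51, with 367 genes at least 2-fold higher and 1354 at least 2-fold lower. Ratios below are on the CPM scale, and counts relative to the median gene are added where they differ.

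A set of 4 transcripts made up 36.7% of all second-label UMIs and 1.29% of first-label UMIs. They were Malat1, Fth1, Psca and Gsto1, chosen after their values were seen. Psca, a small GPI-anchored surface protein of the Ly6 family, had 71946 CPM in the second label and 401 CPM in the first. Over second-label cells it ran from 21807 to 110802 CPM with a median of 61174, above the highest first-label cell at 17391 CPM. Gsto1, an omega-class glutathione transferase, had 54878 CPM against 874 CPM. Its lowest second-label cell had 22157 CPM and its highest first-label cell 11067 CPM, so these ranges did not overlap either. Ltf, the iron-binding protein lactoferrin, followed with 21074 CPM against 75.3 CPM, and its 29 second-label cells ran from 10450 to 43443 CPM. In the first label Ltf was found in 4 cells, of which the cell of finer cluster 18 reached 31621 CPM and the next 167 CPM. Pglyrp1, a secreted protein that binds bacterial peptidoglycan, had 11324 CPM against 43.8 CPM, and Ecm1, an extracellular matrix protein of stratified epithelia, 9822 CPM against 73.6 CPM. For both genes the lowest second-label cell lay above the highest first-label cell. The share of all genes without overlap was not counted, so such ranges cannot be called particular to the genes named here. The first-label levels of these genes rested largely on the 2 cells that stood apart. Without them the first label had 74.5 CPM of Psca, 449 CPM of Gsto1, 5.88 CPM of Ltf, 3.92 CPM of Pglyrp1 and 9.81 CPM of Ecm1, so each ratio was larger.

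Ribosomal protein transcripts were scarce in the second label. All 76 measured ribosomal protein genes were at least 2-fold lower there, against the background of 47.8%, with a median log2 ratio of -3.73 and a range of -4.98 to -2.29. Together they made up 37.2% of first-label and 2.89% of second-label UMIs. The share per cell ran from 1.53% to 5.15% in the second label (median 2.71%) and from 4.74% to 48.3% in the first (median 39.1%). Only 3 first-label cells were under 20%, at 4.74%, 6.58% and 15.4%, and the next cell was at 28.1%. In the 54 other groups of at least 20 cells with 1 label, region and stage, the median share lay between 9.99% and 40.2%, so that the second label lay below all of them. Malat1, a long noncoding RNA retained in the nucleus, was 15.3% of second-label UMIs and 1.03% of first-label UMIs. It varied widely among second-label cells, from 0.164% to 35.5% with a median of 15.5%, and 21 of the 29 cells exceeded every first-label cell. Medians in the other groups ran from 0.289% to 3.71%. Fth1, the heavy chain of the iron store ferritin, was 8.68% of second-label UMIs, from 1.27% to 16.6% per cell, against 0.129% in the first label. Whether the low ribosomal and high Malat1 share has a part in the other ratios was not tested, nor was the part of damage to or shedding of these cells. The mitochondrial share per cell ran from 0.731% to 3.30% in the second label and from 0.241% to 13.6% in the first.

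**Figure D2:**
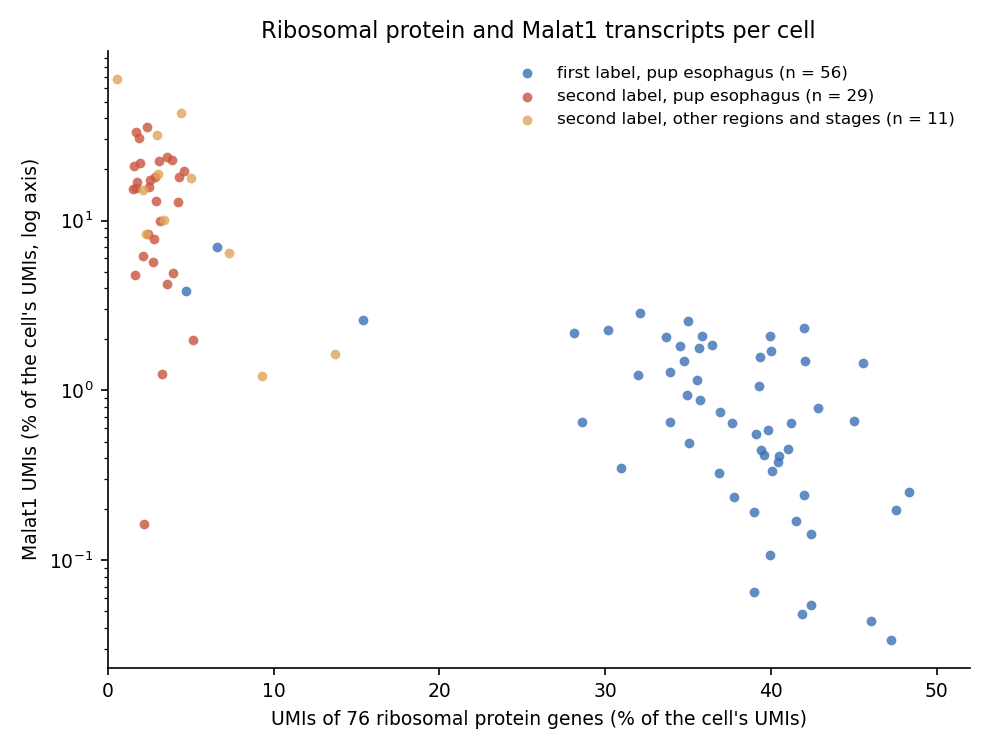
Each point is a cell, with the percent of its UMIs from 76 ribosomal protein genes on the x axis and from Malat1 on the y axis (log axis). Second-label cells of the pup esophagus lie between 1.53% and 5.15% on the x axis, and most first-label cells lie above 28%.

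**Figure D3:**
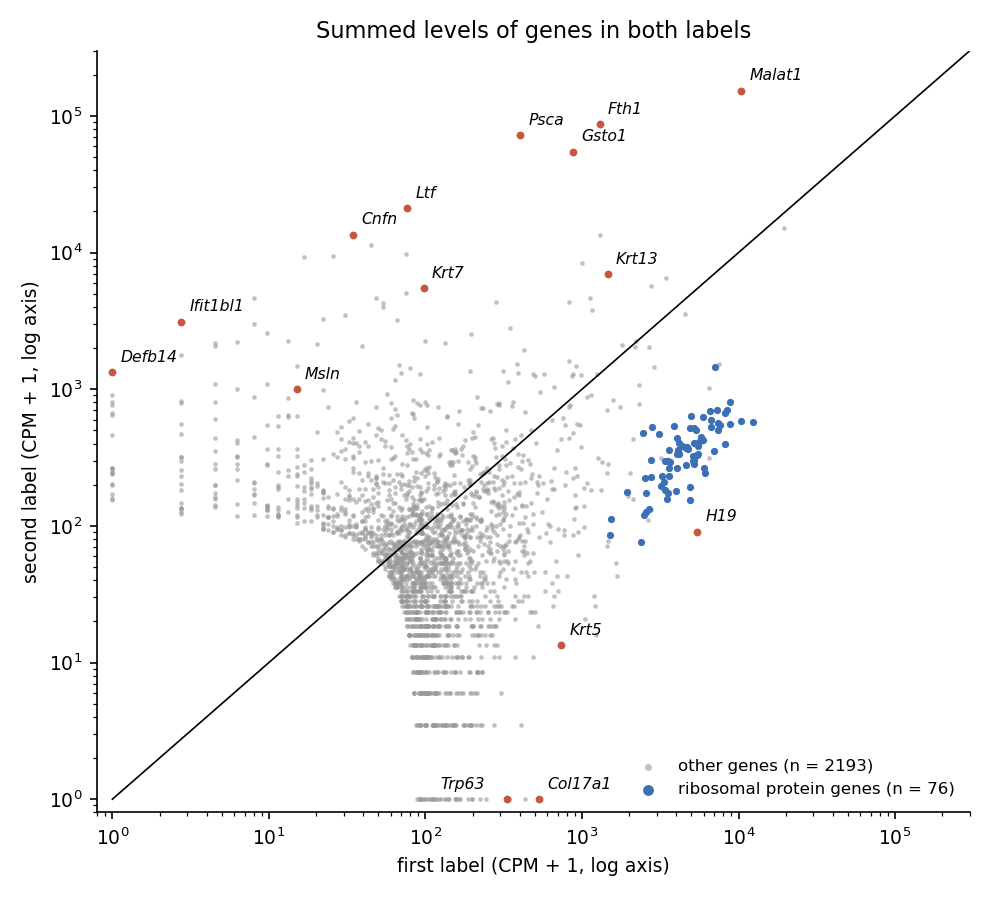
Each point is a gene with at least 50 UMIs over both labels, placed by its summed level in the first label (x) and second label (y) in CPM plus 1 (log axes), with the line of equal levels. The 76 ribosomal protein genes form a group below the line, and Malat1, Fth1, Psca and Gsto1 are the highest points.

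The 15 genes with the highest ratio in the second label, among genes with at least 100 UMIs that were found in at least 50% of its cells, had log2 ratios from 8.31 to 9.80. Being chosen by this ratio, they describe the label and give no support for it. The highest levels among them were those of Cnfn and Clca3b. Cnfn, cornifelin of the cornified envelope (chr7:25367620-25369724, minus strand), had 13517 CPM against 33.3 CPM, with a second-label range of 3588 to 34612 CPM. Clca3b, a member of the family of calcium-activated chloride channel regulators, had 9382 CPM against 24.5 CPM. Krt23, a type I keratin, had 2188 CPM against 3.50 CPM, and its lowest second-label cell (732 CPM) lay above its highest first-label cell (172 CPM). Padi1, an enzyme that converts arginine to citrulline in cornifying proteins, had 310 UMIs in the second label and none in the first, at least 147-fold higher. It was found in all 29 second-label cells.

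Prss27, Slc6a14, Duoxa2 and Spns3 were also among the 15 genes. Prss27, a serine protease of squamous epithelia, had 4615 CPM against 7.01 CPM. Slc6a14, a transporter of neutral and basic amino acids, had 3017 CPM against 7.01 CPM, from 812 to 10213 CPM over second-label cells against at most 180 CPM in a first-label cell. Duoxa2, the maturation factor of the hydrogen peroxide producing oxidase Duox2, had 2223 CPM against 5.25 CPM and was found in 28 of 29 second-label cells. Duox2 lies 450 bases away on chromosome 2 on the opposite strand and was itself found in 28 second-label cells, with a median of 814 CPM. Spns3, of the spinster transporter family, had 271 UMIs against 0 and was at least 128-fold higher.

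Defb14, Ifit1bl1, Isg15, Il1r2 and Ppbp followed. Defb14, a beta-defensin, had 534 UMIs in the second label, with at least 1 in every cell, and none in the first, at least 253-fold higher. Ifit1bl1, a member of the interferon-induced IFIT family, had 1257 UMIs against 1, a log2 ratio of 9.80 (7.95 to 12.9). Its levels were uneven, with 642.7 CPM in the lowest second-label cell, a median of 1948 CPM and 16561 CPM in the highest. Isg15, an interferon-induced ubiquitin-like protein, had 325 UMIs against 0, at least 154-fold higher, and was absent from 6 second-label cells. Across the 29 cells the levels of Ifit1bl1 and Isg15 had a rank correlation of 0.54, a description within 1 library and over cells that differ in depth. It was the highest of the gene pairs computed. The others ran from -0.21 for Malat1 and Psca to 0.47 for Krt7 and Krt13, with 0.22 for Duox2 and Duoxa2. Il1r2, a decoy receptor for interleukin 1, had 1782 CPM against 1.75 CPM. Ppbp, the precursor of chemokine CXCL7, was at least 171-fold higher but was found in 18 of 29 second-label cells, with a median of 117 CPM and a highest value of 3759. AA467197 with 9277 CPM against 15.8 CPM and Gm9573 with 2083 CPM against 3.50 CPM complete the 15. Without the 2 first-label cells that stood apart, the first-label UMIs fell from 19 to 8 for Cnfn, from 14 to 2 for Clca3b, from 9 to 3 for AA467197, from 4 to 1 for Prss27, from 3 to 1 for Duoxa2, from 2 to 0 for Gm9573 and from 1 to 0 for Il1r2. The separate list of mucosal defense genes, which holds none of the 15, was divided. Of its 3 genes with at least 50 UMIs, Ltf was higher, Wfdc2, a secreted protease inhibitor, was lower with 7.47 CPM against 189 CPM, and the beta-defensin Defb1 was within 2-fold with 286 CPM against 210 CPM. The list median was 0.45, or -0.20 with the library size that counts no mitochondrial, hemoglobin or ribosomal protein UMIs. Ifit1bl1, Clca3b and Defb14 have relatives of similar sequence, so their counts depend on how reads shared with such relatives were assigned.

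Several of these genes are better known from blood cells, so immune markers were read in the same cells. Ptprc, Cd52, Tyrobp and Fcer1g had no UMI in either label, Lyz2 had 2 UMIs in the first and 1 in the second, and Cd68 had 14 UMIs in 7 second-label cells. The summed level of the 7 immune markers was 37.3 CPM in the second label (0 to 181 over cells), 8.76 CPM in the first (0 to 241) and 9792 CPM in immune-labelled cells of the pup. The neutrophil products S100a8, S100a9 and Lcn2 had 1, 2 and 1 UMIs in the second label. Itgam, an integrin chain of myeloid cells chosen after its value was seen, nevertheless had 128 UMIs in 28 of 29 second-label cells against 1 UMI in the first label, and the arginase Arg1 had 1484 CPM against 14 CPM, or 1.96 CPM without the 2 first-label cells that stood apart.

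RefSeq promoters (GRCm38.p6) were listed for 13 of the 15 higher genes and 10 of the 15 lower genes. In the 250 bases before a listed start, on either strand, the AP-1 letters TGANTCA were found in 5 of the 13 higher and 0 of the 10 lower genes, against 7.82% of 27025 genes. The AP-1 letters were 1 of 8 motifs searched. The other 7 were found in 0 to 4 of the 13 higher genes, which for TATAAA was 4 genes (14.3% of all genes), for GGAAGT of ETS factors 4 genes (22.2%), and for AACCNGTT of grainyhead-like factors 0 genes (2.00%). The letters CATTCC of TEAD factors, TGTTTAC of FOX factors, AGATAA of GATA factors and GGGTGTGG of KLF factors were each found in 1. A match is a run of letters and not a binding site. Starts are those of RefSeq and can differ from the GENCODE gene positions. By GENCODE the AA467197 window lies inside the gene (chr2:122636986-122641191), and the Clca3b window overlaps the 5′ end of its gene at chr3:144849357. The 5 windows with AP-1 letters are shown 5′ to 3′ because their genes share these letters, which are in capitals and overlap none of the other motifs. They are chr2:122637637-122637886 (plus), chr5:90768268-90768517 (plus), chr3:144849303-144849552 (minus), chrX:21714650-21714899 (plus) and chr2:122298650-122298899 (plus), in the order listed.
AA467197: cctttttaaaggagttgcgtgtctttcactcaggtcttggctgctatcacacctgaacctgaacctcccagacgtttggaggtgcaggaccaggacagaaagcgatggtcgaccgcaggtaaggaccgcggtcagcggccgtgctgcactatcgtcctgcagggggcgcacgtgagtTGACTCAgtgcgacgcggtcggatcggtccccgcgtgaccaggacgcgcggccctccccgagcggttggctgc
Ppbp: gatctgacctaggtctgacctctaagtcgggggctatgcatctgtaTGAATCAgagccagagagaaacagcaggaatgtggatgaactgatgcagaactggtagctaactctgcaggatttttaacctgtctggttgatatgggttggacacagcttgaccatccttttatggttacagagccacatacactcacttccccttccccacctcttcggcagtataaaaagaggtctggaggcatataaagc
Clca3b: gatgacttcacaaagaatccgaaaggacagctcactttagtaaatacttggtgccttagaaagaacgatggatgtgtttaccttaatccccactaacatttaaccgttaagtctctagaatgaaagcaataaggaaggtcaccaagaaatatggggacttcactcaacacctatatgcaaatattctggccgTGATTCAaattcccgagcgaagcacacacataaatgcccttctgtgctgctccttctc
Slc6a14: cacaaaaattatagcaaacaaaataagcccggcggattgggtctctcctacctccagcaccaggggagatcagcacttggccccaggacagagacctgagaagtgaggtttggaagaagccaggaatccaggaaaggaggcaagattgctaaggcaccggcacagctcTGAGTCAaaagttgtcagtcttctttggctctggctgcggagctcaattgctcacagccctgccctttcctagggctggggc
Duoxa2: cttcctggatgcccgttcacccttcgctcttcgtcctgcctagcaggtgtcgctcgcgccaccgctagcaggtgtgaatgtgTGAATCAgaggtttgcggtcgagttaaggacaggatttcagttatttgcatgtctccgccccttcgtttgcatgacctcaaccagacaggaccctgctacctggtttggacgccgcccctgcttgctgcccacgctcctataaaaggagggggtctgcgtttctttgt

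The 15 genes with the lowest ratio, by the same rule in the first label, had log2 ratios from -7.74 to -5.55. They included Col17a1, Krt5, Krt14 and Trp63, genes of basal cells and their anchorage. Col17a1, the collagen of hemidesmosomes, was found in 53 of 56 first-label cells with a median of 534 CPM and had no UMI in the second label, at least 70.8-fold lower. Krt5 and Krt14, the keratin pair of basal cells, had 732 and 406 CPM in the first label and 12.4 and 2.49 CPM in the second, from 5 and 1 UMIs. Dsg3, a desmosomal cadherin, was at least 29.6-fold lower with 126 UMIs against 0. Cd109, a GPI-anchored surface protein, and the phosphatase Ptprz1 also had no UMI in the second label, at least 26.5-fold and 58.2-fold lower. The same held for Dapl1 (195 UMIs), Rin2 (139 UMIs), the pentose phosphate enzyme transketolase Tkt (113 UMIs) and the chaperone Hspa4l (106 UMIs).

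H19, Sox4, Cyp2f2 and Gm20186 complete this set. H19, an imprinted noncoding RNA of fetal tissue, had 5421 CPM in the first label and 89.6 CPM in the second. Its ranges over cells did not overlap, from 628 to 16362 CPM in the first label and from 0 to 433 CPM in the second. H19 had a UMI in all 56 first-label cells, whereas ranges of a lower gene overlap once a first-label cell has none. As the share of all genes without overlap was not counted, its absence cannot be called particular to H19 or to the other genes described so. The imprinted neighbour of H19, the growth factor gene Igf2, which is not among the 15, had 948 CPM against 89.6 CPM. Sox4, a transcription factor of progenitor cells, had 1223 CPM against 14.9 CPM, and Cyp2f2, a cytochrome P450, had 1049 CPM against 19.9 CPM. Gm20186, a noncoding RNA gene, had 156 UMIs against 1. All 30 genes kept their direction in the 12 settings tried.

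Lists of genes with known roles describe the labels further. They hold 355 genes present in the files, of which 152 had at least 50 UMIs over both labels, with 51 at least 2-fold higher and 59 at least 2-fold lower. Among all 2269 genes 21.2% were higher and 47.8% lower, and each list count below is to be read against these shares. A gene near 0 in 1 label reaches 50 UMIs only through the other, so list counts depend in part on this minimum. Of 10 basal squamous genes, 9 were at least 2-fold lower in the second label, with a list median of -5.72, or -5.37 with genes at 0 set to their bound. The exception was Krt15, a keratin of basal and progenitor cells, with 1449 CPM in the second label and 2887 CPM in the first. Its log2 ratio was -0.99, and -1.64 with the library size that counts no mitochondrial, hemoglobin or ribosomal protein UMIs. It was still found in 25 of 29 second-label cells, with a highest value of 4739 CPM. Of 7 hemidesmosome and laminin-332 genes, 6 were lower, and Itgb4 and Lamb3 had 79 and 89 first-label UMIs against 0. Of 6 desmosome genes, 4 were lower (median -2.89), against 47.8% of all genes. These 4 included Pkp1 at -4.04, Perp at -3.33 and Dsp at -2.45. All 4 proliferation genes with enough UMIs were lower, and Mki67 was found in 9 first-label cells and no second-label cell.

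Suprabasal keratins were higher in the second label. Of 4 suprabasal genes 3 were at least 2-fold higher, and all 4 were so relative to the median gene. Krt6a, a keratin of activated squamous cells, had 1362 CPM against 193 CPM, and Krt78, a type II keratin of upper layers, had 172 CPM against 3.50 CPM, or 1.96 CPM without the 2 cells that stood apart. Krt4, the partner of Krt13, differed less, with 1302 CPM against 876 CPM, and 282 of the 500 first-label UMIs came from the cell with the most UMIs. Its log2 ratio was 0.57, was 1.60 without the 2 cells that stood apart, and was -0.08 with a library size that counts no mitochondrial, hemoglobin or ribosomal protein UMIs. Other differentiation products stayed low in both labels. Krtdap had 9 second-label UMIs, Sbsn 15, Lor 3 and Sprr3 1, and Ivl had none in either label.

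Of 5 cornified envelope genes with enough UMIs, 4 were higher (median 7.03, or 8.38 without the 2 cells that stood apart). Besides Cnfn and Ecm1 these were Csta1, a cystatin of the envelope, with 625 CPM against 12.3 CPM (1.96 CPM without the 2 cells), and Sprr2d, a small proline-rich protein. Sprr2d had 261 UMIs in 4 second-label cells and none in the other 25 or in the first label, and 1 cell held 150 of them, so its value rests on few cells. Lgals7, a galectin of stratified epithelia, was lower, with 39.8 CPM against 328 CPM. The list holds 15 genes in the files, and only these 5 reached the minimum number of UMIs over both labels. The 4 higher genes reached it only through the second label. In the first label Cnfn had 19 UMIs, Ecm1 42, Csta1 7 and Sprr2d none. The count of 4 and the list median therefore depend on this minimum and do not describe the rest of the list. Of 6 keratins of simple epithelia, 5 were higher (median 4.41), namely Krt7, Krt18, Krt19, Krt23 and Krt80. With no mitochondrial, hemoglobin or ribosomal protein UMIs in the library size, 4 were higher and 1 lower. Krt19 had 2823 CPM against 347 CPM, whereas Krt8 had 64.7 CPM against 109 CPM, a log2 ratio of -0.72. The Krt8 ratio was 0.01 without the 2 cells that stood apart and -1.36 with the library size that counts no ribosomal protein, mitochondrial or hemoglobin UMIs. Without the 2 cells Krt18 fell from 63.1 to 41.2 CPM in the first label. Periderm genes were divided, with 3 of 8 higher (4 relative to the median gene) and 2 lower. Krt6a, Krt18 and Krt19 were higher, and Krt17 (2.49 CPM against 186 CPM) and Sfn (22.4 CPM against 249 CPM) were lower. With the library size that counts no ribosomal protein, mitochondrial or hemoglobin UMIs, 2 periderm genes were higher and 4 lower.

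Surface and tight junction genes were mostly higher in the second label, whereas none of the desmosome and hemidesmosome genes above was at least 2-fold higher. Of 9 membrane mucin and surface glycoprotein genes, 8 were at least 2-fold higher (median 4.36, or 6.47 without the 2 cells that stood apart). Muc1 had 321 CPM against 14 CPM, Muc4 231 CPM against 14 CPM, and Muc20 had 105 UMIs against 0. Ly6a, a GPI-anchored protein of the same family as Psca, had 3512 CPM against 29.8 CPM. Upk1b, a uroplakin of the urothelial surface, had 2250 CPM against 98.1 CPM, and Upk3bl 1531 CPM against 382 CPM. Of 10 tight junction genes, 7 were higher, or 9 relative to the median gene. Claudin Cldn23 had 1008 CPM against 5.25 CPM, Tjp3 217 CPM against 5.25 CPM and Cldn7 461 CPM against 47.3 CPM, while Cldn10 was lower with 2.49 CPM against 173 CPM. Much of the low first-label signal of these genes came from the 2 cells that stood apart. Without them Muc4 and Cldn23 had no first-label UMI, Upk1b had 23.5 CPM and Cldn7 31.4 CPM. Muc4, Muc20 and Cldn23 reached the minimum number of UMIs only through the second label, so the counts of these lists depend in part on that minimum. The S100 and annexin family had 10 of 13 genes higher and 2 lower (11 and 1 relative to the median gene). With no mitochondrial, hemoglobin or ribosomal protein UMIs in the library size, 7 were higher and 2 lower. On that scale 6 tight junction genes and 7 membrane mucin and surface glycoprotein genes were higher. S100a6 reached 13375 CPM against 1294 CPM, and Anxa8 was lower with 2.49 CPM against 126 CPM.

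The Msln signal was checked against other mesothelial genes. Wt1, Lrrn4, Gpm6a and Rspo1 had no UMI in either label, Upk3b had 2 UMIs in the second label, and Krt19 was the 1 other list gene with at least 50 UMIs. The 11 mesothelial genes summed to 3836 CPM in the second label, most of it Krt19 and Msln, and to 10205 CPM in the second stromal label of the pup tissues, where Msln itself was 1015 CPM. Products of the stomach gave a view of free RNA. All 7 measured gastric products were within 2-fold between labels (median -0.42), while 4 of the 7 were at least 2-fold lower with the library size that counts no ribosomal protein, mitochondrial or hemoglobin UMIs. Pgc, the pepsinogen C gene, had UMIs in 55 of 56 first-label and 29 of 29 second-label cells at 783 and 543 CPM. The gastric list summed to 1632 CPM in the first label, 1190 CPM in the second, 3238 CPM in pup immune cells and 54923 CPM in pup stomach columnar cells.

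Regulators of squamous identity were split. Of 11 squamous transcription factors with enough UMIs, 3 were at least 2-fold higher and 4 lower (4 and 4 relative to the median gene). With no mitochondrial, hemoglobin or ribosomal protein UMIs in the library size, 3 were higher and 6 lower. On the CPM scale Trp63, Sox2 (9.96 CPM against 156 CPM), Pax9 (22.4 CPM against 187 CPM) and Klf4 (112 CPM against 890 CPM) were lower. Prdm1, a transcriptional repressor that takes part in terminal differentiation, was higher with 276 CPM against 8.76 CPM, Elf3, an epithelial ETS factor, with 1297 CPM against 91.1 CPM, and Grhl1 with 119 CPM against 7.01 CPM. Klf5 differed little, at 767 and 837 CPM. Immediate early genes, which respond to stimulation and to tissue dissociation, had 7 of 12 genes lower, against 47.8% of all genes. Egr1 had 77.2 CPM against 1463 CPM and Fos 428 CPM against 2125 CPM, while Jund, Dusp1 and Zfp36 were at least 2-fold higher relative to the median gene. On the CPM scale their log2 ratios were 0.37, 0.97 and 0.21, and with the library size that counts no ribosomal protein, mitochondrial or hemoglobin UMIs -0.27, 0.32 and -0.43, so the direction of Jund and Zfp36 depends on the scale. All 6 heat shock genes were lower on the CPM scale, 4 of them relative to the median gene. Among 9 detoxification and redox genes 3 were higher (Gsto1, Gsta4 and Sqstm1, with first-label Gsta4 at 312 CPM or 182 CPM without the 2 cells that stood apart) and 6 lower (5 relative to the median gene), so the level of Gsto1 was not shared by the list. Of all genes 21.2% were higher and 47.8% lower.

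**Figure D4:**
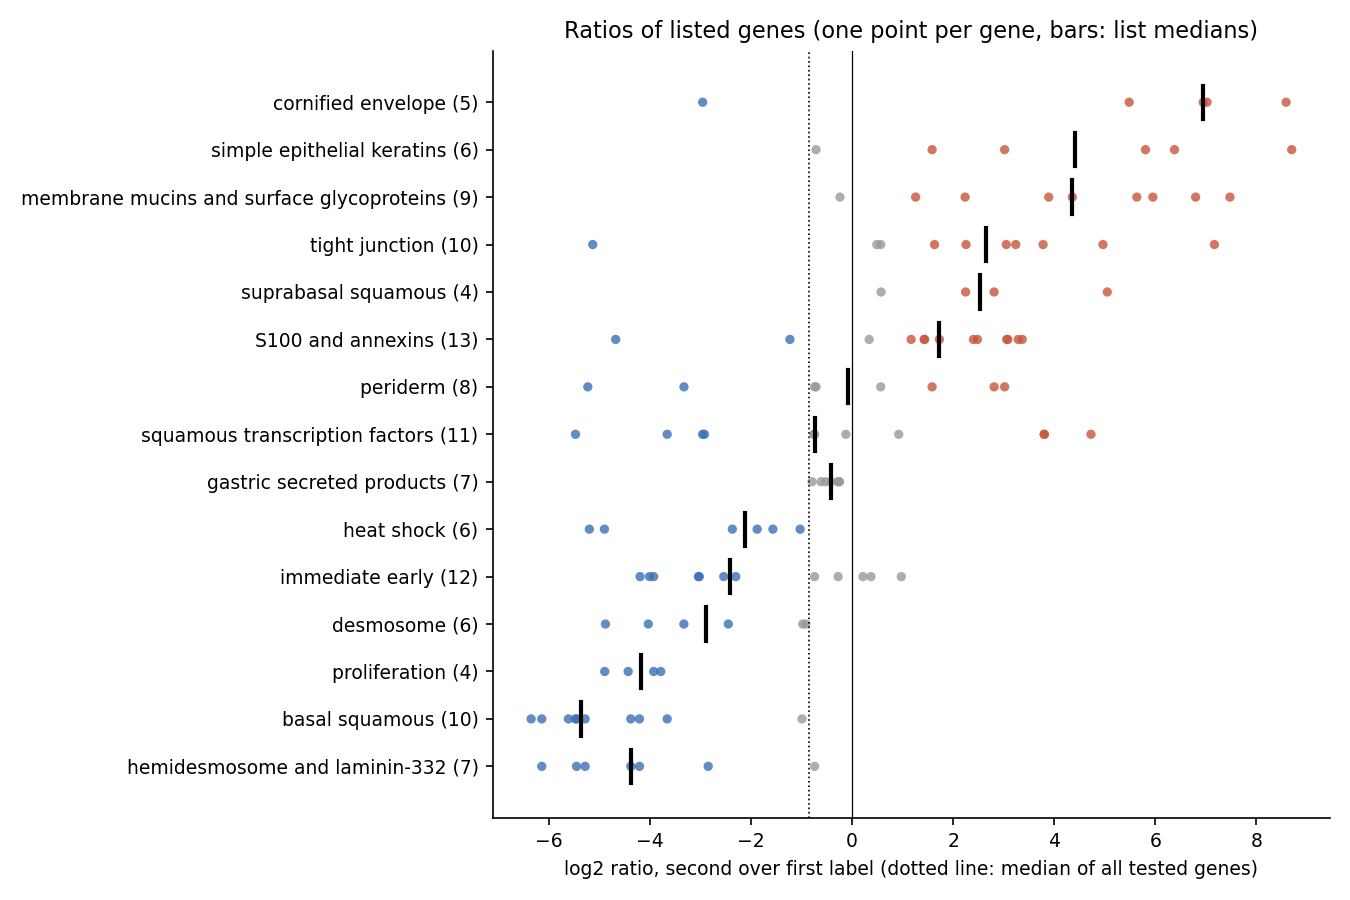
Each point is a listed gene with at least 50 UMIs, placed by its log2 ratio of the second over the first label, with genes at 0 in a label set to the bound that 3 UMIs give. Red points are at least 2-fold higher, blue points at least 2-fold lower, bars are list medians, the solid line is 0 and the dotted line is the median of all 2269 genes at -0.86. Basal, hemidesmosome and proliferation lists lie to the left and cornified, simple keratin and surface lists to the right. A gene near 0 in 1 label is shown only through its UMIs in the other, so list medians depend in part on the minimum.

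The 11 second-label cells of other regions and stages had the same marker pattern. None had a Trp63 UMI, all had UMIs of Krt7, Krt13, Psca, Gsto1 and Ltf, and 10 had UMIs of Msln. Krt7 ran from 1201 to 25951 CPM in them and Psca from 10475 to 62201 CPM. Their ribosomal protein share was 0.529% to 13.7%, and the median of 3.41% was also low. Malat1 ran from 1.22% to 68.3%. All were in the same finer cluster 18, so this likeness is in part what the clustering required.

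The 8 second-label cells of E19 (3 esophagus, 4 GE-SCJ, 1 stomach) were set beside the 29 cells of the pup esophagus. Among 1014 genes with at least 50 UMIs, 167 (16.5%) were at least 2-fold higher and 193 at least 2-fold lower in the pup. Of the 15 higher genes, which were chosen by their level in the pup cells, 11 were at least 2-fold higher in the pup. Slc6a14 had 3017 CPM in the pup and 287 CPM at E19, Ifit1bl1 3129 and 162 CPM, and Padi1 772 and 73.7 CPM. Of genes outside the 15, Ltf had 21074 CPM in the pup and 5432 CPM at E19, and Pglyrp1 11324 and 2572 CPM. The other 4 of the 15, Cnfn, Krt23, Defb14 and Ppbp, were within 2-fold, and of these Ppbp had the lower level in the pup, at 901 and 1223 CPM. At E19 Defb14 was found in 3 of 8 cells, and 1 cell held 110 of its 123 UMIs. Ppbp was found in 4 of them, and 1 cell held 86 of its 166 UMIs. Ifit1bl1, Isg15, Clca3b, Slc6a14 and Duoxa2 were each found in 3 of the 8, so these E19 levels rest on few cells. Keratins were divided. Krt13 had 6915 CPM in the pup and 14622 CPM at E19, and Krt7 5491 and 10465 CPM, whereas Krt23 had 2188 and 1614 CPM and Krt15 1449 and 1562 CPM, with a log2 ratio of -0.11 (-0.34 to 0.12). Sprr3, a small proline-rich protein of upper layers, had 2.49 and 759 CPM. Region, number of cells and depth differ between these 2 sets, so stage cannot be told apart from them.

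First-label cells of other stages showed where the markers lie over the study. In first-label esophageal cells of E15, E19, pup and adult, Krt7 was 189, 763, 96.3 and 10.3 CPM. Krt13 was 1772, 8054, 1456 and 27514 CPM in the same order. Msln was 32.6, 109, 14 and 1.56 CPM, and Psca 107, 1594, 401 and 66.4 CPM. All 4 of these genes were thus lower in the pup first label than in the E19 first label. These are unlike parts, as the first label was 56 of 85 squamous cells in the pup and 120 of 123 at E19. The 29 pup cells set apart had 5491, 6915, 1001 and 71946 CPM of Krt7, Krt13, Msln and Psca. A fall after E19 over all squamous cells therefore cannot be read from the first label alone. Adult esophageal squamous cells had high Krt13 and 4066 CPM of Cnfn, but 7.48 CPM of Ltf and 12.5 CPM of Padi1. All 15 higher genes were at least 2-fold higher in the pup second label than in these adult cells, against 10.8% of 6793 genes, and their choice by level in the pup cells makes this a description.

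**Figure D5:**
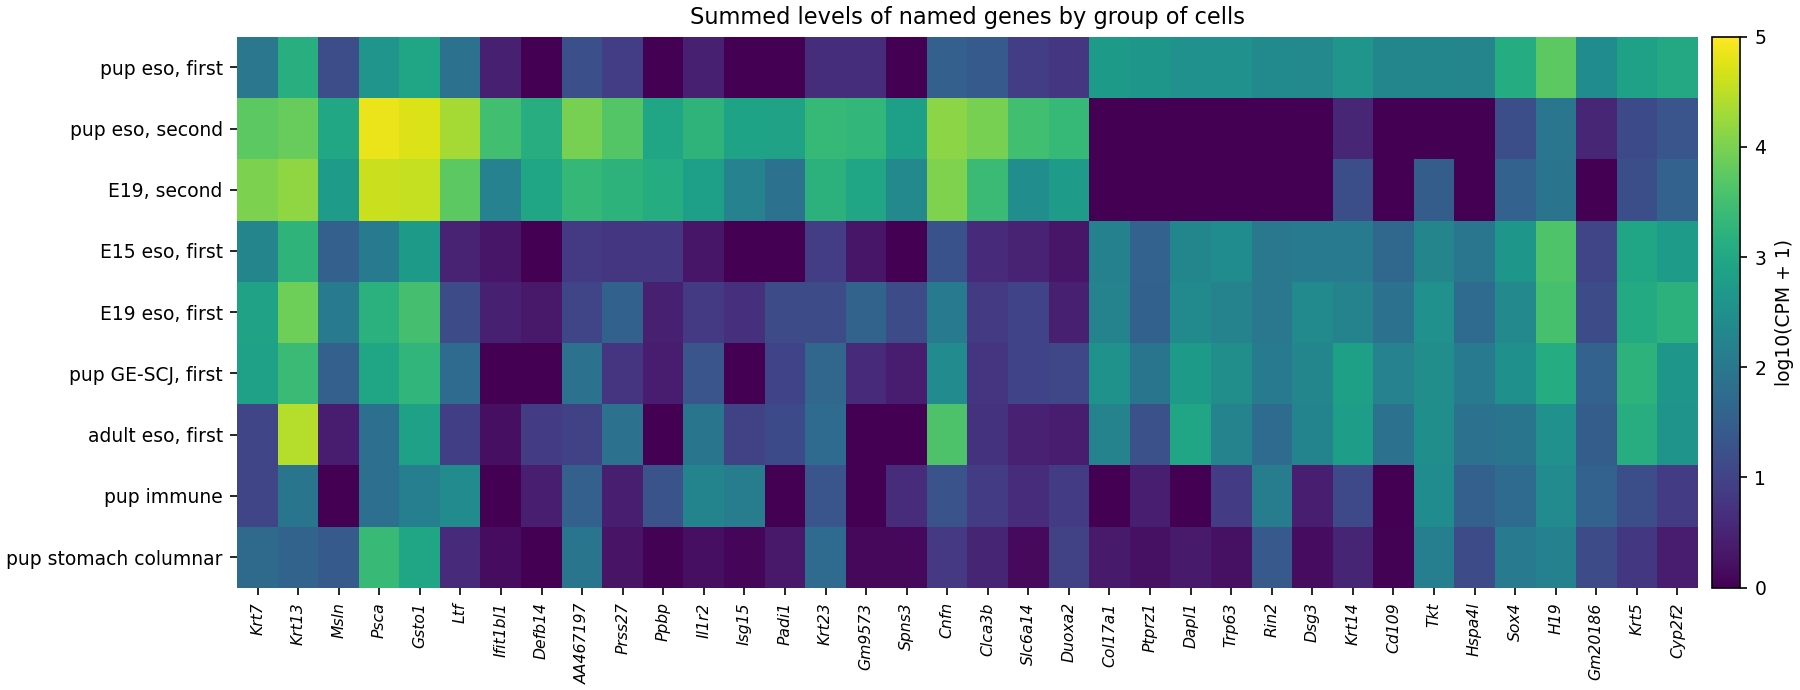
Colour gives the summed level of each gene as log10(CPM + 1) in 9 groups of cells, with the 30 genes of highest and lowest ratio and 6 further genes in columns. The 15 higher genes are bright in the pup and E19 second label, and the 15 lower genes are dark there and present in the first label at every stage.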

How the data were processed

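Single cells of mouse esophagus, GE-SCJ and stomach were marked with CellPlex tags and sequenced as 1 gene expression library (10x Genomics 3′ v3.1). The authors made UMI counts with Cell Ranger 6.1.1 on mm10 (per the submitters' processing notes), filtered cells by genes, UMIs and mitochondrial share, and deposited raw counts of 19550 genes in 7808 cells. The authors also deposited, per cell, the tag, the class label, cluster numbers, the percent of mitochondrial UMIs and cell cycle scores with the phase called from them. The UMI sum matched the deposited total in all 7808 cells, both deposited lists gave a cell the same tag, and no barcode was repeated. No further doublets were removed.

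From these, UMIs were summed per label and scaled to CPM, with exact Poisson intervals. Log2 ratios use sums with 1 UMI added to each and an exact interval conditional on their total. A gene at 0 in a label was given the bound that 3 UMIs over the label allow, and a share of 0 the bound of 3 cells. Other shares have exact Clopper-Pearson intervals. Genes needed 50 UMIs over both labels, and a ratio past 2-fold was counted without a test, since each label is 1 pooled sample. Named genes were the 4 markers, the 15 highest and 15 lowest ratios with at least 100 UMIs and UMIs in at least 50% of the cells of the higher label, and the list members of largest ratio. Others, among them Pglyrp1 and Duox2, were named outside this rule, and only some are marked as chosen after their values were seen. The members and lists were chosen with earlier results of these data known. Cells were thinned to 5000 UMIs with seed 1. The calculation of ratios was checked on simulated counts. Gene positions are from GENCODE M21 (GRCm38) and promoters from RefSeq (GRCm38.p6). Other settings changed the scale, filters, depth and cells compared, of which 3 were chosen after seeing the data. Tools were matplotlib 3.10.9, pandas 2.3.3, scipy 1.17.1 and numpy 2.4.6 under Python 3.11.15. Postnatal cells of other studies were not analysed here.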

Additional observations from a re-analysis of the deposited data

How the results depend on the processing

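The marker ratios and the 30 named genes kept their direction in the alternatives tried. Some listed genes within 2-fold, among them Krt4, Defb1, Jund and Zfp36, changed sign with no mitochondrial, hemoglobin or ribosomal protein UMIs in the library size. Krt8 moved from -0.72 to 0.01 without the 2 first-label cells that stood apart. No paired analysis was possible because each label is a single pooled sample and no test was run. Counts of genes past a fold moved with the number of genes tested, the fold and the scale. The 481 higher genes became 222 after thinning, 279 with second-label cells of other regions and stages, 815 with a minimum of 20 UMIs, 146 with a minimum of 200 UMIs and 318 at 4-fold. The 1084 lower genes became 386 after thinning, 2582 at 20 UMIs, 245 at 200 UMIs and 694 at 4-fold. When CPM was averaged over cells, the log2 ratios were 5.17 for Krt7, 2.75 for Krt13 and 8.03 for Msln, and after thinning they were 6.57, 2.85 and 8.09. Without the cell with the most UMIs of the gene in each label they were 2.80 for Krt13 and 8.95 for Msln. With no mitochondrial, hemoglobin or ribosomal protein UMIs in the library size they were 5.16 for Krt7 and 1.60 for Krt13. Against the first label of the pup GE-SCJ they were 2.91 for Krt7, 1.43 for Krt13 and 4.84 for Msln, and for second-label cells of other regions and stages 6.68 for Krt7 and 3.25 for Krt13. Relative to the median gene they were 6.67 for Krt7 and 3.11 for Krt13. Without the 2 first-label cells that stood apart they were 2.88 for Krt13 and 9.0 for Msln, where Msln has no first-label UMI, and without Malat1 in the library size 2.47 for Krt13. After thinning, the share of first-label cells with a UMI was 23.4% for Krt7 and 0% for Msln. The causes were not tested, except that fewer genes are tested under a stricter minimum and fewer pass a higher fold. Leaving out cells with over 1% of UMIs from lists of other cell types removed no cell. Depth limits genes under 50 UMIs, and a gene at 0 in the second label could reach 7.47 CPM.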
